A study of Mus musculus with 24 samples.

Results

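The regions described here were the accessible chromatin peaks of *Tle4*-lineage corticothalamic projection neurons (Tle4 CThPNs) just before birth, at E18.5 (E, embryonic day), and just after birth, at P1 (P, postnatal day). Accessibility was measured by ATAC-seq, which tags loosely packed DNA with a transposase, so that stretches with many tags (peaks) mark open promoters and other regulatory elements. A peak of the E18.5 list that no P1 peak overlapped by at least 1 bp was taken as lost, a P1 peak that no E18.5 peak overlapped was taken as gained, and all others were taken as kept. On chromosomes 1 to 19 and X the E18.5 list held 19716 peaks and the P1 list 19508, together 39224 of the 292908 peaks of the 12 lists of the series. Of the E18.5 peaks 4382 were lost and 15334 were kept, and of the P1 peaks 4207 were gained and 15301 were kept.

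The series compared Tle4 CThPNs with *Cux2*-lineage callosal projection neurons (Cux2 CPNs) at 6 ages from E18.5 to P48. Both Tle4 groups were labelled C57BL/6, kept on a mixed C57BL/6J background per the study's methods, and had the genotype Tle4-2A-CreERT2:Ai14, in which the *Tle4* locus drives a tamoxifen-dependent Cre recombinase that switches on the red reporter tdTomato. Pregnant dams had received 4-hydroxytamoxifen at 1 mg per 10 g body weight in late gestation, and red cells were sorted from somatosensory cortex and part of motor cortex, each library pooling animals of both sexes from more than 1 litter. The Cux2 groups were treated alike and carried the genotype Cux2-CreERT2:Ai14, a driver line known to label some interneurons too. Recombination was induced at the same stage in both age groups, so the P1 cells had carried the reporter for longer than the E18.5 cells, and age and time since induction cannot be told apart. The 2 libraries of each age had been combined into 1 list, so no value had a replicate error and no test between the ages could be made. The 95% Wilson intervals given below cover counting error only.

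Corticothalamic projection neurons sit in the deepest layer of the cortex and send their axons to the thalamus, whose input to the cortex they regulate. Their identity is held by transcription factors that include *Tbr1*, *Sox5*, *Fezf2* and the co-repressor *Tle4* itself. Around birth these cells have left the cell cycle and reached their layer, and they extend axons and begin to form synapses. Promoter chromatin of genes used in most cells tends to be open in every cell type, whereas distal elements, in introns or between genes, are open in fewer cell types and for shorter times.

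The windows printed here show letters in which the sets differed, since the motif counts given further on rest on such windows. Each line gives the 201 bases centred on the summit of the strongest lost or gained distal peak that held the motif there, plus strand, mouse build mm9 (NCBIM37), with the motif in capitals. The lost peaks are shown for CTCF (the insulator protein), for a LIM or Q50 homeodomain (CTAATTA) and for SOX factors (ACAATGG), and the gained peaks for MEF2 and for AP-1 (TGANTCA). A motif on the minus strand appears as its reverse complement.
Lost, CTCF, chr3:108974325-108974525: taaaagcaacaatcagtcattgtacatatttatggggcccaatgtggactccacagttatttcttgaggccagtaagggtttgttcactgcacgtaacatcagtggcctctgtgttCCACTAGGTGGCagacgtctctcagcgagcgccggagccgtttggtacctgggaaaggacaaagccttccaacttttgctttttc
Lost, LIM or Q50 homeodomain, chr6:89608691-89608891: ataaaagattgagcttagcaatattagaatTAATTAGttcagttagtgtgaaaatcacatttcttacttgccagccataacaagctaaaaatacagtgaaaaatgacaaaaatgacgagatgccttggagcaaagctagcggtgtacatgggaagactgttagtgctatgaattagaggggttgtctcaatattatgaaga
Lost, SOX, chr8:83277337-83277537: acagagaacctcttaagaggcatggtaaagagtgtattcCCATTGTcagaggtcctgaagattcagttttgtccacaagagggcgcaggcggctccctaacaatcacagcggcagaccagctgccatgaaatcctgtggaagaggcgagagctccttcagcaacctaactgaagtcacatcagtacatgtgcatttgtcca
Gained, MEF2, chr14:102994153-102994353: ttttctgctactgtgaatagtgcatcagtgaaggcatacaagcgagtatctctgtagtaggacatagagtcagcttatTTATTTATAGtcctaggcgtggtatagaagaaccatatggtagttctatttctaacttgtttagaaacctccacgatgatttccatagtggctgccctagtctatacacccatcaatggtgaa
Gained, AP-1, chr10:46984144-46984344: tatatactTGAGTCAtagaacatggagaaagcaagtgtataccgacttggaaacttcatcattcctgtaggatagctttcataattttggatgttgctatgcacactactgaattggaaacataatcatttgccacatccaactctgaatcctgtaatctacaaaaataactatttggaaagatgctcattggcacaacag

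The lost CTCF window lay between genes, 48345 bp from the start of *Slc25a24*, which encodes a mitochondrial carrier. Its peak had a fold enrichment of 14.8 over background at E18.5, and the same place was in 5 Cux2 lists and in the Tle4 P7 list, 7 lists in all with its own. The lost homeodomain window lay in an intron of *Txnrd3*, a thioredoxin reductase gene, had a fold enrichment of 13.7 and was in no other list. The lost SOX window, 14041 bp from *Smarca5* (an ATPase that slides nucleosomes), had a fold enrichment of 12.2 and was in 9 lists, Tle4 P3 and P7 among them. The gained MEF2 window lay far from coding genes on chromosome 14, with a fold enrichment of 14.6 at P1, and was also in the Tle4 P3 and P7 lists and in the Cux2 lists of P21 and P48. The gained AP-1 window on chromosome 10 reached 16.6 and was otherwise only in the Tle4 P3 list.

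With lists of 19716 and 19508 peaks and kept peaks that paired almost one to one, 15334 at E18.5 with 15301 at P1, the numbers of lost and gained peaks had to be similar. Of the E18.5 peaks 22.2% (95% interval 21.65 to 22.8) were lost, and of the P1 peaks 21.6% (20.99 to 22.1) were gained. The kept peaks were 77.8% of the E18.5 list and 78.4% of the P1 list. Lost peaks covered 2168 kb of the genome and gained peaks 2285 kb, against 9583 kb for the kept peaks of the E18.5 list. Across chromosomes the lost share ran from 15.8% on chromosome 11 to 25.6% on chromosome 3, and the gained share from 16.5% on the X chromosome to 26.9% on chromosome 9.

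Lost and gained peaks were mostly the weak ones of their lists. The median fold enrichment was 9.10 for lost peaks (quartiles 8.37 and 10.0) and 9.42 for gained peaks (8.47 and 10.5), against 11.2 for kept peaks at E18.5 (9.39 and 13.9) and 11.3 at P1 (9.55 and 13.9). Lost peaks were also narrower, with a median width of 458 bp against 597 bp for the kept peaks of the same list, and gained peaks measured 503 bp against 635 bp. In the weakest decile of the E18.5 list by −log10 p, 58.2% of peaks (56.0 to 60.4) had no P1 counterpart. That share was 20.3% in decile 5 and 1.83% in decile 8, and 0 of 1972 peaks were lost in the strongest decile, which allows a share of up to 0.194% by the upper Wilson bound. The P1 list showed the same slope, from 56.4% gained in its weakest decile (54.1 to 58.5) to 22.1% in decile 5 and 0 of 1951 in the strongest. The E18.5 list ended at a −log10 p of 14.5 and the P1 list at 17.4, so a site that closed and a site whose signal slipped below the end of a list cannot be told apart.

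**Figure D1:**
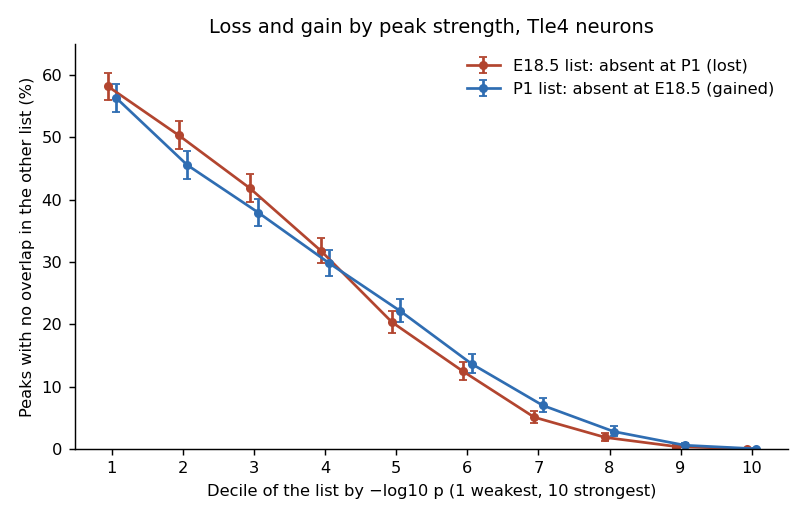
The horizontal axis gives deciles of each list by −log10 p, from weakest to strongest, and the vertical axis the percent of peaks with no overlap in the other list, with 95% Wilson intervals (red, E18.5 peaks lost; blue, P1 peaks gained). Both curves run from 58.2% and 56.4% in the weakest decile to 0 in the strongest.

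Few strong sites were in the list of 1 age alone. Among the 5000 E18.5 peaks with the highest −log10 p, 18 were lost, 1 of them at a promoter, with fold enrichments from 10.9 to 18.6. Among the 5000 strongest P1 peaks 37 were gained, 5 at promoters, with fold enrichments from 7.91 to 19.3. All 37 strong gained peaks were still present at P3, whereas 8 of the 18 strong lost peaks were present again. By definition the gained peaks are in the P1 list, the one next in age to P3, and the lost peaks are not. Their shares at P3 are therefore no like comparison.

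The genomic position of the sets differed. Of the lost peaks 694, or 15.8% (14.8 to 16.9), lay within 1 kb of a transcription start site (TSS), and of the gained peaks 935, or 22.2% (20.99 to 23.5), against 43.6% (42.8 to 44.3) of the kept peaks. Introns held 35.1% of the lost, 31.4% of the gained and 22.2% of the kept peaks, and 47.2%, 44.6% and 32.9% of them lay between genes. Exons held 1.83%, 1.71% and 1.32%. The median distance from summit to nearest TSS was 22410 bp for lost, 18780 bp for gained and 5361 bp for kept peaks. Read the other way, 9.41% of the promoter peaks of the E18.5 list were lost (8.77 to 10.1) against 31.1% of the intronic and 29.1% of the intergenic ones. In the P1 list 12.3% of promoter peaks were gained (11.6 to 13.1), 28.0% of intronic and 27.2% of intergenic ones.

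Kept peaks were also stronger, and strength moved with the promoter share. Within the 5 weakest deciles of the E18.5 list, a split made after the data were seen, promoters made up 16.2% of 3994 lost peaks (15.1 to 17.4) and 30.8% of 5864 kept peaks (29.6 to 32.0). Within the 5 weakest deciles of the P1 list they made up 22.5% of 3740 gained peaks (21.2 to 23.9) and 27.9% of 6014 kept peaks (26.8 to 29.0). In the 5 strongest deciles the shares were 11.9% of 388 lost and 51.5% of kept peaks, and 19.7% of 467 gained and 53.7% of kept peaks.

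**Figure D2:**
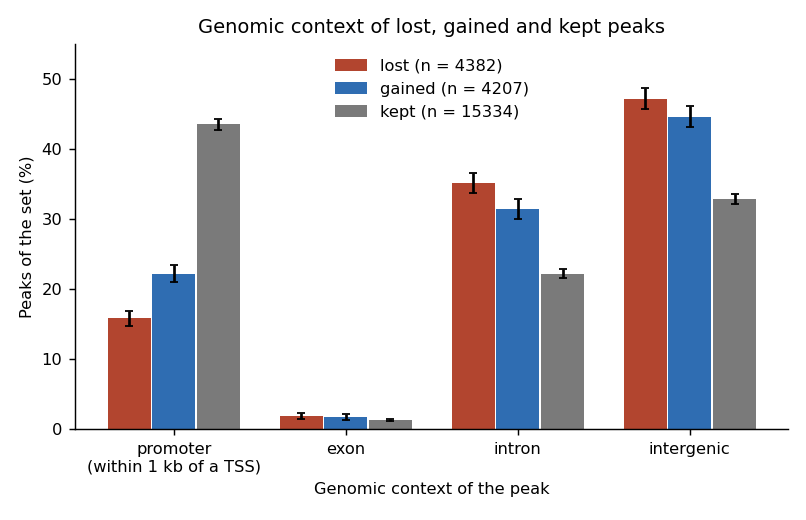
Bars give the percent of lost, gained and kept peaks (kept as listed at E18.5) at promoters, in exons, in introns and between genes, with 95% Wilson intervals. Promoters hold 43.6% of kept peaks, 22.2% of gained peaks and 15.8% of lost peaks, and the intergenic share has the opposite order.

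Base composition followed position. The median GC content was 44.3% for lost, 45.9% for gained and 49.9% for kept peaks. Among distal peaks alone it was 43.2%, 44.2% and 43.9%. The 439 lost peaks with more than 50% GC and an observed to expected CpG ratio above 0.6, the makeup of a CpG island, were 10.0% of the set, against 16.5% of gained and 36.6% of kept peaks.

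The lists of the later ages, which had no part in naming the sets, gave lost and gained peaks different histories. In the Tle4 P3 list 34.9% of the lost peaks (33.5 to 36.4) were present again, whereas 74.7% of the gained peaks (73.3 to 76.0) were still there. The P7 list held 15.8% of the lost and 37.3% of the gained peaks, the short P21 list (6538 peaks) 3.24% and 7.56%, and the P48 list 8.81% and 15.6%. Kept peaks were in these lists at 94.6%, 67.0%, 27.8% and 38.5%, and those kept peaks that came from the 5 weakest deciles of the E18.5 list at 88.5%, 47.6%, 11.7% and 22.9%. Kept peaks from the 5 weakest deciles of the P1 list were in them at 86.6%, 42.1%, 9.16% and 20.1%. Of the lost peaks 2506 (57.2%, 55.7 to 58.7) were in no later Tle4 list, and 1161 (26.5%) were in none of the other 11 lists. Of the gained peaks 1417 (33.7%, 32.3 to 35.1) were present at both P3 and P7, 183 in all later Tle4 lists, 849 (20.2%) in no later Tle4 list, and 362 (8.61%) in no other list at all. The P1 and P3 lists are adjacent in age and E18.5 and P3 are not, so the P3 shares of the lost and the gained peaks rest on intervals of different length. By definition gained peaks are in the P1 list and lost peaks are not. Of all Tle4 P1 peaks 90.3% were in the P3 list.

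Promoter peaks of both sets were found at P3 more often than distal ones. At P3, 56.0% of 694 lost promoter peaks (52.3 to 59.7) were in the list against 30.97% of 3688 lost distal peaks (29.5 to 32.5). Of the gained peaks 84.3% of 935 at promoters (81.8 to 86.5) and 71.9% of 3272 distal ones (70.4 to 73.5) were present at P3.

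The lists of Cux2 CPNs, sorted from other animals, held part of these sites. The Cux2 E18.5 list (33988 peaks) held 50.1% of the lost peaks (48.6 to 51.6) and 43.1% of the gained peaks (41.6 to 44.6), and the shorter Cux2 P1 list (21747 peaks) held 29.9% (28.6 to 31.3) and 35.8% (34.4 to 37.3). Kept peaks were in them at 74.0% and 65.6%. Among the 10000 strongest peaks of each list these shares were 26.1% of lost and 28.6% of gained peaks at E18.5, and 25.4% and 34.3% at P1, so the order of lost and gained peaks in the Cux2 E18.5 list turned around and the lost ones differed little between the 2 ages. Lost and gained were set anew among those peaks, and most of them overlapped a weaker peak in the other whole Tle4 list. Among lost peaks 984 (22.5%) were in the Cux2 list at E18.5 but not at P1, as in Tle4 CThPNs, 1210 (27.6%) were in both Cux2 lists, 102 (2.33%) in the Cux2 P1 list alone, and 2086 (47.6%) in neither. Among gained peaks 195 (4.64%) were absent from the Cux2 list at E18.5 and present at P1, 1312 (31.2%) were in both, 501 (11.9%) in the Cux2 E18.5 list alone, and 2199 (52.3%) in neither. The 984 were out of 2194 lost peaks in the Cux2 E18.5 list, and the 195 out of 1507 gained peaks in the Cux2 P1 list. Both were near the shares over all Cux2 peaks, 44.0% of E18.5 peaks lost and 12.6% of P1 peaks gained. Peaks in neither Cux2 list were rarely promoters, 6.18% of the lost and 5.46% of the gained ones, while 49.2% of the gained peaks that both Cux2 lists held were promoters.

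**Figure D3:**
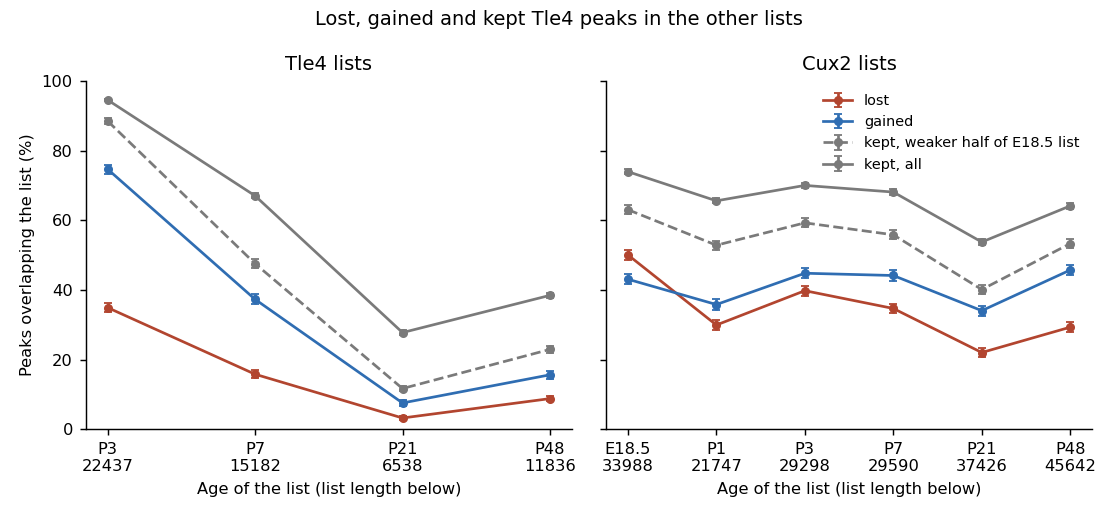
The vertical axes give the percent of lost (red), gained (blue) and kept (grey) peaks that overlap each later Tle4 list (left) and each Cux2 list (right), with 95% Wilson intervals and the length of each list under its age. Gained peaks lie above lost peaks in all 4 later Tle4 lists and in the Cux2 lists from P1 on, and below them in the Cux2 E18.5 list, where among the 10000 strongest peaks of each list the order turns around (26.1% of lost and 28.6% of gained peaks). In that setting lost and gained are set anew among those peaks.

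The adjacent steps of the series were read in the same way. From P1 to P3, 9.73% of the Tle4 P1 peaks were lost (9.32 to 10.1) and 22.1% of the P3 peaks were gained, the P3 list being longer (22437 peaks). From E18.5 to P1, 44.0% of the Cux2 peaks were lost and 12.6% gained, with a list that shrank. With 10000 strongest peaks of each list compared, the step across birth lost 21.8% (21.03 to 22.6) in Tle4 CThPNs and 24.9% (24.1 to 25.8) in Cux2 CPNs, and the Tle4 step from P1 to P3 lost 16.6% (15.9 to 17.4). In these lists of equal length, promoters were a larger share of gained than of lost peaks at each step, 31.5% and 22.3% for Tle4 across birth, 43.4% and 19.5% for Tle4 from P1 to P3, and 37.8% and 21.98% for Cux2 across birth. In the whole lists this order turned around for Cux2, with 13.1% of gained and 14.4% of lost peaks at promoters. The first 2 steps share the Tle4 P1 list.

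Motif letters were counted on both strands in a window of 0.301 kb centred on each summit, and distal peaks were taken alone because promoters have other letters. CTCF letters stood in 245 of 3688 lost distal windows, 6.64% (5.88 to 7.49), against 3.12% (2.57 to 3.77) of gained and 3.32% (2.96 to 3.71) of kept distal windows. Most of these lost CTCF sites were seen elsewhere in the series. Of the 245, 96.7% (93.7 to 98.3) were in at least 1 of the 10 other lists, against 70.1% (68.6 to 71.6) of all lost distal peaks, 79.6% were in the Cux2 E18.5 list against 44.7%, and 43.7% were back at P3 against 30.97%. CTCF letters were in 4.36% (3.77 to 5.03) of the kept distal windows of the 5 weakest deciles at E18.5, and in 4.07% (3.33 to 4.97) of the lost distal peaks that no later Tle4 list held.

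Letters of homeodomain, SOX and forkhead factors were also more frequent among lost sites. The homeodomain letters CTAATTA stood in 4.18% of lost (3.58 to 4.87), 1.86% of gained (1.45 to 2.39) and 2.90% of kept distal windows. SOX letters, ACAATGG, stood in 2.58% (2.11 to 3.14), 1.56% (1.19 to 2.04) and 1.502%, and the forkhead letters TGTTTAC in 4.50% (3.88 to 5.22), 2.84% (2.33 to 3.47) and 3.12%. In kept distal windows of the 5 weakest deciles at E18.5, homeodomain letters stood in 2.61% (2.16 to 3.15) and SOX letters in 1.82% (1.45 to 2.28). Forkhead letters stood in 3.45% (2.93 to 4.055) of them. The SOX and forkhead intervals overlap those of the lost windows, and the homeodomain interval does not. SOX proteins and LIM homeodomain proteins act in progenitors and in newly formed neurons, and *Sox5* acts in the corticothalamic neurons themselves. Of the lost windows with homeodomain letters 21.4% (15.7 to 28.6) were back at P3, and of those with SOX letters 27.4% (19.4 to 37.1).

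MEF2, AP-1 and RFX letters were more frequent among gained than among lost sites. MEF2 proteins are activity-dependent regulators of synapse number. MEF2 letters stood in 346 of 3272 gained distal windows, 10.6% (9.57 to 11.7), against 7.38% (6.58 to 8.26) of lost and 9.54% (8.94 to 10.2) of kept ones. Their share was 12.7% (10.9 to 14.8) of 1170 gained distal peaks that stayed through P3 and P7, and 8.72% (7.91 to 9.59) of kept distal peaks in the 5 weakest deciles of the P1 list. Of the gained peaks with MEF2 letters 20.5% (16.6 to 25.1) were in the Cux2 E18.5 list, below the 31.4% (29.8 to 33.0) of all gained distal peaks. AP-1 letters stood in 11.2% of gained (10.1 to 12.3), 9.06% of lost (8.17 to 10.0) and 9.76% of kept windows, and the RFX letters GTTGCCATG in 2.11% (1.67 to 2.66), 1.22% (0.913 to 1.63) and 2.08%. The cAMP response element TGACGTCA, which CREB binds, was in 18 gained windows (0.550%, 0.348 to 0.868) and in 4 lost ones (0.108%, 0.0422 to 0.279), against 0.682% of kept ones. The E-box CAGATG of the NEUROD and NEUROG factors was common in all sets, in 32.3% of gained, 29.9% of lost and 32.1% of kept windows.

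Over all distal windows of both lists CTCF letters stood in 3.79%, CTAATTA in 2.91%, SOX letters in 1.68%, forkhead letters in 3.35%, MEF2 letters in 9.25%, AP-1 letters in 9.94%, RFX letters in 1.94% and the cAMP response element in 0.594%. At promoters the letters split differently. The ETS letters CCGGAAG stood in 8.93% of 694 lost promoter windows (7.03 to 11.3), in 17.0% of 935 gained ones (14.7 to 19.6) and in 21.2% of kept ones, and in 20.4% of promoter windows of both lists. The NF-Y letters CCAATCA stood in 5.62% of lost (4.14 to 7.59), 6.63% of gained (5.21 to 8.41) and 17.5% of kept promoter windows, and in 16.2% of all. A match says only that the letters are there.

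**Figure D4:**
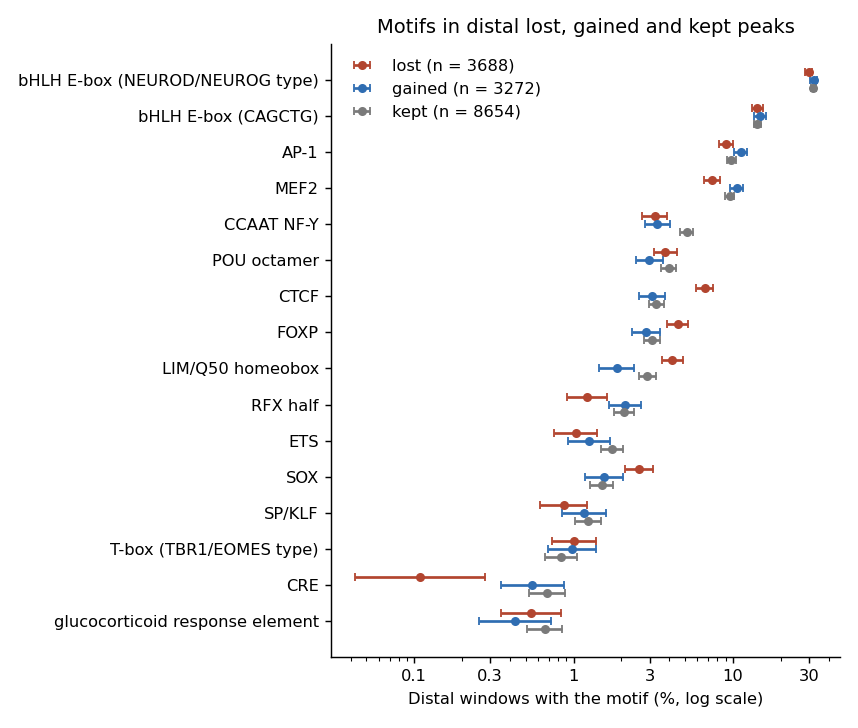
Each row is a motif and the horizontal axis, on a log scale, gives the percent of distal windows (0.301 kb) that hold it in lost (red), gained (blue) and kept (grey) peaks, with 95% Wilson intervals. CTCF, homeodomain, SOX and forkhead letters have their highest shares among lost peaks, and MEF2 and AP-1 letters among gained peaks.

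The sites described next are from the 12 lost and the 12 gained peaks of highest fold enrichment with no peak of the other age within 1 kb. Windows of 201 bases around the summit are printed for a few of them, to show what the strongest sites of 1 age look like. Capitals mark E-boxes (CAGATG or CAGCTG), a POU octamer (ATGCAAAT) and forkhead letters.
Lost, intron of Etl4, chr2:20108980-20109180: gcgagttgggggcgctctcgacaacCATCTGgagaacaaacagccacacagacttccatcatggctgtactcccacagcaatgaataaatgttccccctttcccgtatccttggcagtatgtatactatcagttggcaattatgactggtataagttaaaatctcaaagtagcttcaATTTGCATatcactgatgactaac
Lost, near Wif1, chr10:120598840-120599040: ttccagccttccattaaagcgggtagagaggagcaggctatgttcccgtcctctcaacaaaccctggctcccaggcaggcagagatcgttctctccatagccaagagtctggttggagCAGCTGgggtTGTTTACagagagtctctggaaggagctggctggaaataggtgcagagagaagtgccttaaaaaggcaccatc
Gained, near Gfra2, chr14:71425300-71425500: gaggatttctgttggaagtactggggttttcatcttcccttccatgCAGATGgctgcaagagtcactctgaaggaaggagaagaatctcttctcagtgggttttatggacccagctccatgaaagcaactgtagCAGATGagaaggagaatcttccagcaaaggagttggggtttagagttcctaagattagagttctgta
Gained, near Ces1e, none of the motifs searched, chr8:95763889-95764089: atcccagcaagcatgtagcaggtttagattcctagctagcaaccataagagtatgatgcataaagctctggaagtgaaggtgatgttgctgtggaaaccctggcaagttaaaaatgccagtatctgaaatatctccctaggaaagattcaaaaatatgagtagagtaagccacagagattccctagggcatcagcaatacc

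The lost peak of highest fold enrichment, chr7:90400464-90401140, lay between genes with a fold enrichment of 18.6 at E18.5, the 94.9th percentile of the list, and was also in the Cux2 lists of E18.5, P1 and P3. The next one, chr2:20108952-20109420 with 17.3, lay in an intron of *Etl4* and was in no other list. The peak chr10:120598833-120599165, 78129 bp from *Wif1*, which encodes a secreted inhibitor of Wnt signalling, had 15.7 and was likewise in the Tle4 E18.5 list alone, as were a peak in an intron of *Mecom* (a zinc finger transcription factor gene) with 15.1 and one on chromosome 2 with 15.9. A peak 61215 bp from *Arhgap18*, which encodes a GTPase-activating protein, had 15.2 and was in 5 Cux2 lists. An intronic peak of *Col13a1*, a transmembrane collagen gene, had 15.1 and was back at P3, and the promoter of *Lipo1*, a lipase gene, had 15.7 and was back at P3. The peak chr3:37102878-37103407, 28441 bp from the cytokine gene *Il21*, had 17.2 and was in every other list, so only the Tle4 P1 list lacked it. A peak on chromosome 2 at 16.5 and an intronic one on chromosome 18 at 15.1, nearest to the sialyltransferase gene *St8sia3*, were back at P3 too, and the CTCF window near *Slc25a24* closes the group.

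The leading gained peaks were more often shared with later ages. All 12 were present at P3, the list next in age to the P1 list that holds them by definition. The first, chr18:46204745-46205103, had a fold enrichment of 19.3 at P1, the 96.9th percentile, and was in all lists except that of Tle4 E18.5. The peak chr8:95763426-95764175, 10471 bp from the carboxylesterase gene *Ces1e*, had 16.8 and was in all later Tle4 lists and in the Cux2 lists of P21 and P48. All later Tle4 lists also held a peak 19034 bp from *Plch1*, a phospholipase C gene, with 15.6, whose Cux2 lists were P7 and P21. A peak 269859 bp from *Fshr*, the receptor of follicle-stimulating hormone, had 16.6, and one 108638 bp from *Gfra2*, which encodes a receptor subunit for neurturin, had 16.4, and both were in the Tle4 P3 and P7 lists and in no Cux2 list. A peak 678303 bp from *Efna5*, an ephrin ligand gene, had 15.7 and was in the Cux2 lists of P3, P21 and P48. Others were 16.6 on chromosome 10 (the AP-1 window), 16.5 on chromosome 5 (in all lists but Tle4 E18.5), 16.2 at the promoter of *3110082I17Rik*, 15.9 nearest to *Plcl1* and 15.7 near the water channel gene *Aqp9*.

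Gains and losses that both neuron classes showed were fewer, and the following were picked after their values were seen. The strongest peaks lost in both classes were an intronic one within *Usp8* and *Usp50*, deubiquitinase genes (14.7), the promoter of *Fbxo43* (14.3), introns of *Myct1* (13.8) and *Lingo2* (13.6), and a site 59521 bp from the growth factor gene *Fgf20* (13.7). Those at *Fbxo43* and *Myct1* were back in the P3 lists of both classes, and the *Fgf20* site was in the Cux2 lists of P7 and P21. Among the strongest gained in both were the site nearest to *Plcl1* (15.9), an RNA gene promoter on chromosome 18 (15.3), and sites nearest to *Fam135b* (15.0) and *Csmd1* (14.8).

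Gene by gene, peaks were assigned to the nearest protein-coding TSS within 100 kb of the summit. Of 15525 E18.5 peaks so assigned 20.1% were lost, and of 15452 P1 peaks 19.9% were gained. Of 11360 genes with an assigned peak, 2598 had a lost and 2619 a gained one, and 570 had both. At 83 genes 3 or more peaks were lost, and at 61 genes 3 or more were gained.

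The 10 genes with the largest surplus of losses lost between 4 and 7 peaks each. *Zbtb20*, a zinc finger transcription factor gene, kept 1 of 7 peaks and gained none. *Slc1a3*, the glutamate transporter of astrocytes and radial glia, lost 5 of 7, with fold enrichments from 8.90 to 12.7, and 4 of these 5 were in no other list. The strongest, chr15:8616494-8617138 in an intron, is shown by the 201 bases around its summit, which held none of the letters searched.
Lost, intron of Slc1a3, chr15:8616759-8616959: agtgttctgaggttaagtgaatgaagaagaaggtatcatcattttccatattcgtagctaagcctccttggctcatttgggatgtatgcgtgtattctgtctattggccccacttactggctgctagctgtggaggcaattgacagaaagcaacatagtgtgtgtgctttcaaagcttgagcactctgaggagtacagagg
*Rgs3*, a regulator of G protein signalling, lost 5 of 6 peaks, *Etl4* lost 7 of 12 and gained 2, and *Arhgap18* lost all 4 of its peaks, its promoter (10.5) among them. *Cyfip2*, a subunit of the actin-regulating WAVE complex, lost 4 of 5 with its promoter (9.28). *Clybl*, a mitochondrial enzyme gene, and *Fam13c* also lost 4 of 5, and the ubiquitin ligase gene *Cblb* and the centrosome gene *Cdk5rap2* lost 4 of 9. None of these 10 except *Etl4* gained a peak.

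The 10 genes with the largest surplus of gains gained between 3 and 7 peaks each. *Cntn4*, a cell adhesion molecule of axons, gained 7 of its 11 P1 peaks and lost 1, and its lost promoter peak (9.80) and its gained one (9.43) lay at different start sites. *Phactr1*, a regulator of actin, gained 7 of 14 and lost 2. *Dclk1*, a microtubule-associated kinase, gained 5 of 9 and lost none, and *Tiam2*, an activator of Rac, gained 5 of 12 and lost none, its intronic peak of 10.5 staying in all later Tle4 lists. *Plxna2*, a semaphorin receptor, gained 5 of 7, its promoter (6.23) among them, and lost 1. *Rbfox1*, a neuronal splicing regulator, had no E18.5 peak and 4 at P1, the strongest at 12.1, and *Med13l*, a part of the Mediator kinase module, likewise went from 0 to 4 with its promoter at 9.48. *Rgs9* gained 4 of 6, *Efcab6* gained 5 of 6 and lost 1, and *2900026A02Rik* went from 0 to 3.

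**Figure D5:**
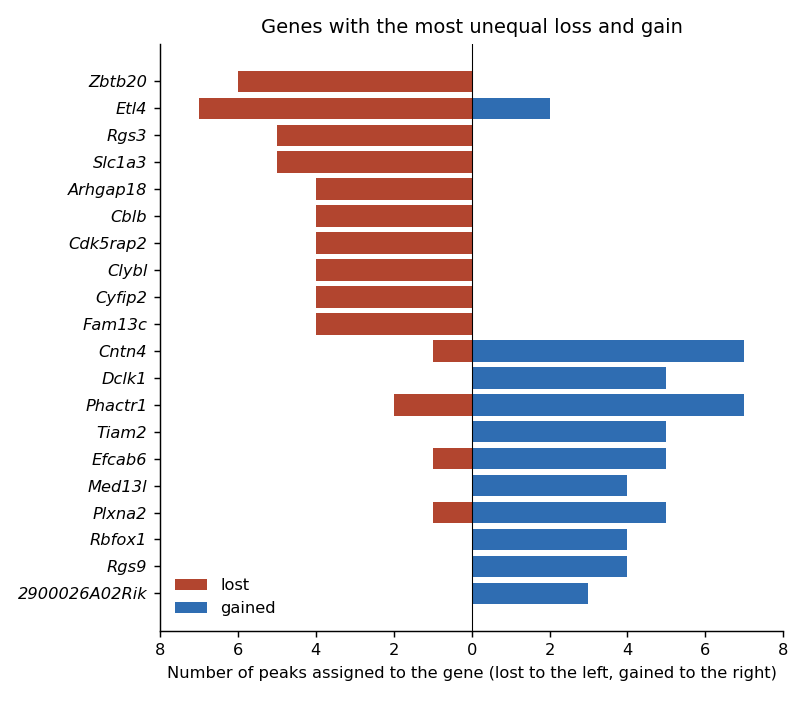
Bars give the number of lost peaks (red, to the left) and gained peaks (blue, to the right) assigned to each of the 10 genes with the largest surplus of losses and the 10 with the largest surplus of gains. *Etl4* has 7 lost peaks, and *Cntn4* and *Phactr1* have 7 gained peaks each.

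At the promoters of protein-coding genes most of the state was stable. Of 22208 genes 8525 had a peak within 1 kb of a TSS at either age, and 7101 of them had one at both. A promoter peak at E18.5 only was found for 589 genes, 6.91% of the 8525, and at P1 only for 835, 9.79%. These promoter peaks were weak, with median fold enrichments of 8.73 and 9.27, percentiles 20.1 and 26.3 of their lists. At 369 of the 589 genes (62.6%) the promoter was in the P3 list again, and at 716 of the 835 (85.7%) it was still there. The Cux2 E18.5 list had a promoter peak at 83.7% of the first and 89.8% of the second group.

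Of the 32 E18.5 peaks assigned to 10 identity genes of corticothalamic neurons 5 were lost, and 5 of 32 P1 peaks were gained. Each share was 15.6% (6.86 to 31.7), an interval that holds the 20.1% lost and 19.9% gained over all genes. *Tle4* itself had a promoter peak at both ages, with fold enrichments of 12.2 and 11.1, and all 8 of its peaks were kept. *Fezf2*, a master regulator of deep-layer neurons, had 7 peaks at each age and kept them all, without a promoter peak. The promoter of *Tbr1*, a determinant of layer 6 fate, had 8.56 and 7.15, and that of *Foxp2* had 6.79 and 7.07. *Sox5* lost 3 of 5 peaks, all in introns, and gained 1. The promoter of *Zfpm2* had a peak at E18.5 only (7.95), and that of *Bcl11b*, which encodes CTIP2, at P1 only (6.80, percentile 2.50). *Syt6* and *Ntsr1* had no promoter peak and 2 and 1 peaks nearby at E18.5, and *Crym* had none at either age.

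Markers of other cells had few peaks in these lists. Over 37 genes that mark interneurons, astrocytes, the oligodendrocyte lineage, microglia, endothelium and progenitors, 22 had no assigned peak at either age and 1 had a promoter peak. That gene was *P2ry12*, a microglial receptor, at E18.5 only (9.70). Together they had 24 peaks at E18.5, of which 14 were lost, and 13 at P1, of which 3 were gained, where 20.1% were lost and 19.9% gained over all genes. Those 2 shares include promoter peaks, which were rare here. Over the whole lists 31.1% of intronic and 29.1% of intergenic E18.5 peaks were lost, and 28.0% and 27.2% of such P1 peaks were gained. *Slc1a3* accounted for 5 of the 14, and *Dlx5*, a homeobox gene of interneurons, for 2, which were its only peaks. *Gad1*, *Gad2*, *Slc32a1*, *Gfap*, *Aldh1l1*, *Olig1*, *Olig2*, *Sox10* and *Cldn5* had no peak at either age. *Sox2* and *Hes1*, progenitor genes, lost their single peaks, and that of *Hes1* was back at P3. The lost peak of *Aqp4*, an astrocyte marker, was back at P3 and P7. The 3 gained peaks were at the progenitor genes *Pax6*, which also lost a peak, and *Neurog1*, and at *Mbp* of the oligodendrocyte lineage. Fewer other cells in the sort and less open chromatin per cell cannot be told apart in such pooled material, and the part of other cells in the lost set was not tested. The 8 upper-layer genes had 6 peaks at E18.5, none lost, and 11 at P1, of which 5 were gained, against the same 20.1% and 19.9%, with the *Rorb* promoter at P1 only (8.68).

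Axon guidance genes, the ligands and receptors that steer growing axons, had 86 peaks at E18.5 and 91 at P1. Of the former 23 were lost, 26.7% (18.53 to 36.9), an interval that holds the 20.1% over all genes, and of the latter 28 were gained, 30.8% (22.2 to 40.9) against 19.9%. The last share includes promoter peaks. Of the intronic and intergenic peaks of the whole P1 list 28.0% and 27.2% were gained, which the interval holds. Of 60 genes 14 had a promoter peak at both ages, 6 at E18.5 only, 4 at P1 only and 36 at neither, where over all genes with a promoter peak 6.91% had it at E18.5 only and 9.79% at P1 only. Among the semaphorin ligands, *Sema3c* (11.8), *Sema3a* (6.74), *Sema4d* (7.96) and *Sema6a* (8.91) had it at E18.5 only, and *Sema5b* (8.75) and *Sema7a* (8.35) at P1 only. Among the receptors, *Plxnd1* (12.1) and the netrin receptor gene *Unc5d* (7.92) had it at E18.5 only and *Plxna2* at P1 only, and the ligand gene *Slit3* (9.37) had it at P1 only. *Sema3c* and *Plxnd1*, a ligand and a receptor of the same signalling family, had promoter peaks in no later Tle4 list. Distal gains included *Robo2*, a Slit receptor gene, with 2 intergenic peaks (14.3 and 10.5) that were still present at P3, and *Ephb2*, with 3 peaks.

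Synapse genes stood at the background in number of exchanged peaks, with 18 of 89 E18.5 peaks lost (20.2%) and 18 of 90 P1 peaks gained (20.0%). Of 39 genes 17 had a promoter peak at both ages, 0 at E18.5 only and 4 at P1 only, few genes to set against the 6.91% and 9.79% over all genes. The 4 included *Stx1a*, the syntaxin of vesicle fusion (10.7), *Nrxn3*, a presynaptic neurexin (9.81), and *Shank1*, a postsynaptic scaffold (7.75), and each of these had a promoter peak at P3. *Dlg2*, the scaffold PSD-93, exchanged 5 lost for 5 gained peaks. A gained peak 95010 bp from *Syt1*, the calcium sensor of release, had 13.5 and stayed in all later Tle4 lists. The 13 annotated of 15 immature neuron genes had 8 of 25 E18.5 peaks lost (32.0%, 17.2 to 51.6) and 2 of 19 P1 peaks gained (10.5%, 2.94 to 31.4), intervals that hold the 20.1% and 19.9% over all genes, with *Marcks* the only promoter at E18.5 only (5.47). *Stmn2*, *Gap43*, *Dcx* and *Neurod6* each lost at least 1 distal peak, and those of *Gap43* and *Dcx* and 1 of *Neurod6* were back at P3. The gained peaks were assigned to *Sox4* (12.4, still present at P3 and P7) and *Tubb3* (6.40).

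Genes that respond to neuronal activity, hormones and oxygen were followed because birth changes all of these. Over all genes 20.1% of E18.5 peaks were lost and 19.9% of P1 peaks gained, and 6.91% and 9.79% of promoters with a peak had it at E18.5 only and at P1 only. Of 20 activity-regulated genes 13 had a promoter peak at both ages, with *Bdnf*, a neurotrophin gene, at E18.5 only (8.59) and the transcription factor gene *Npas4* at P1 only (7.66). Of their E18.5 peaks 5 of 37 were lost (13.5%), among them distal peaks of *Egr2* (11.3), *Nr4a2*, *Npas4* and *Bdnf*. Of their P1 peaks 9 of 41 were gained (21.95%, 12.0 to 36.7), an interval that holds the 19.9% over all genes. The gained ones included single distal peaks of *Arc*, *Fos*, *Junb*, *Egr1*, *Egr3* and *Nr4a1*. Of these named peaks, all but that of *Egr1* were in the Cux2 E18.5 list. Among 17 steroid and thyroid hormone genes *Hsd11b1*, which regenerates glucocorticoid within cells, had a promoter peak at P1 only (7.71), and 6 of 26 peaks were lost and 6 of 26 gained. A gained peak 34248 bp from *Klf9*, a thyroid hormone target, had 13.2 and stayed in all later Tle4 lists. Among 15 hypoxia genes *Ldha* (7.91) had a promoter peak at E18.5 only and the glucose transporter gene *Slc2a3* (9.28) and *Bnip3* (8.43) at P1 only, with 2 of 17 peaks lost and 2 of 17 gained. Among 26 genes of ion channels and chloride transport, *Scn3a*, the sodium channel of immature neurons (9.03), *Kcna1* (8.43) and *Kcnd2* (8.30, a peak that overlapped a P1 peak and was kept) were among those with a promoter peak at E18.5 only. *Kcna4* (percentile 21.4) had one at P1 only, with 9 of 43 peaks lost (20.9%) and 7 of 41 gained (17.1%).

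Over all 244 listed genes found in the annotation, 106 had a promoter peak at either age, 15 of them at E18.5 only and 15 at P1 only, against 6.91% and 9.79% over all genes with a promoter peak. Of the first 15, 10 had it again at P3, and of the second 15, 13 still had it, where over all genes the shares were 62.6% and 85.7%.

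The strength of kept peaks correlated between the ages, less so at distal sites than at promoters. Among 15190 kept peaks with a single partner the fold enrichments correlated across peaks with Pearson's r = 0.822 on the log2 scale and a Spearman coefficient of 0.779, given as a description since peaks are not independent replicates. At promoters r was 0.867 (6603 pairs) and at distal sites 0.714 (8587 pairs), with Spearman coefficients of 0.861 and 0.655. The percentile rank within the list moved by more than 20 points in 27.5% of pairs, in 20.2% at promoters and 33.0% at distal sites. The largest rise was at the promoter of *Sgpl1*, the lyase of sphingosine 1-phosphate, from percentile 3.77 at E18.5 to 79.8 at P1 (fold enrichment 7.25 and 13.8). Next came an intergenic site 12888 bp from *Fam69b* (8.85 and 20.2), the *Frmd8* promoter (8.58 and 16.6), an intron of *Mx1*, an interferon-induced GTPase gene (8.11 and 14.7), the *Klhl5* promoter (7.72 and 13.9) and an intergenic site far from coding genes on chromosome 5 (7.91 and 14.1). The largest fall was near *1110032A04Rik*, from percentile 86.5 to 6.24 (15.2 and 7.61), followed by introns of *Heatr8* (13.6 and 7.37), *Oca2*, a gene of melanin synthesis (15.8 and 8.59), and *Fam189a1* (14.5 and 8.52), a site near *Grxcr1* (14.2 and 8.11) and the promoter of *Rbbp8*, a DNA repair gene (14.7 and 8.62). With 1 list per age these shifts have no replicate check.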

How the data were processed

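Bulk ATAC-seq libraries of sorted Tle4 CThPNs and Cux2 CPNs had been made at 6 ages with 2 biological replicates each, 24 samples in all. The authors mapped reads to mm9 (Bowtie2), handled duplicates with Picard and ran MACS2 on the replicates within the irreproducible discovery rate framework, keeping peaks at a rate of 0.1 or less and so 1 list per group. A transposase shift was not given in the sources used here. The deposited lists give each peak's fold enrichment over background (a ratio), its −log10 p and its summit, and no read counts. The study's methods state a nominal depth per library, but the realised depth of each sample is unknown. The calling threshold may differ between lists.

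The lists were overlapped by at least 1 bp, and peaks off chromosomes 1 to 19 and X were left out. TSSs (95414) came from the GENCODE M1 annotation of the same build. Promoters were within 1 kb of a TSS, and other peaks were classed at the summit. Intervals are Wilson intervals. Deciles, percentiles and the printed windows were computed from the deposited values, and overlap and motif searches were tested on simulated data. The members, the 15 gene lists, the 22 motifs and the naming rules (the 12 strongest lost and gained peaks without a peak within 1 kb, the 10 genes with most surplus, list members with a promoter peak at 1 age, the 6 kept pairs with the largest rank moves) were chosen with earlier results of these data known. No value has a replicate error. Alternatives are given at the end. A few items that these rules would name are not reported here.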

Additional observations from a re-analysis of the deposited data

Results flagged for a closer look

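Peaks outside chromosomes 1 to 19 and X took no part in any comparison. The E18.5 list held 9 such peaks, on the mitochondrial genome and the Y chromosome, and the P1 list held 6, on the mitochondrial genome. They are given as counts, with no explanation.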

How the results depend on the processing

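Shares were compared with their counting intervals, and those that moved beyond them are given here with the gene counts. Genes with a promoter peak at E18.5 only, at P1 only and in both lists, 589, 835 and 7101 in the report, numbered 550, 814 and 6903 with promoters drawn within 500 bp, and 470, 694 and 4974 among the 10000 strongest peaks of each list. With peaks within 1 kb counted as kept, 20.9% of the P1 peaks were gained. With promoters drawn within 500 bp, 13.9% of lost, 20.3% of gained and 42.2% of kept peaks were promoters, and with protein-coding start sites only 14.4%, 20.9% and 42%. Among the 10000 strongest peaks of each list the promoter shares were 22.3%, 31.5% and 57.3%, the lost peaks were in the Tle4 P3, Cux2 E18.5 and Cux2 P1 lists at 25.6%, 26.1% and 25.4%, and the gained ones at 58.6%, 28.6% and 34.3%. There lost and gained were set anew among those peaks, and most of them overlapped a weaker peak of the other whole Tle4 list. Among the 5000 strongest peaks set against the whole other list, 0.36% were lost and 0.74% gained, promoters made up 5.56% of lost, 13.5% of gained and 64.9% of kept peaks, the lost ones were in those 3 lists at 44.4%, 44.4% and 33.3%, and the gained ones at 100%, 29.7% and 32.4%. In the 5 weakest deciles, a setting added after the data were seen, 30.8% of kept peaks were promoters. No paired analysis was possible because each age has 1 list made from both replicates, and for the same reason no replicate could be left out. The realised depth of each sample is unknown, so it cannot be said how many lost or gained sites lie just under the end of a list.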
